A study of Mus musculus with 4 samples.

Results

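A set of 9 genes of thyroid hormone signalling and cone opsin patterning were examined in *rd7* and wild-type retinas. They are the thyroid hormone receptors *Thra* and *Thrb*, the retinoid X receptors *Rxra*, *Rxrb* and *Rxrg*, the deiodinases *Dio2* and *Dio3*, and the orphan receptors *Nr2f1* and *Nr2f2*. The rule took the rows of the deposited expression table that carry these symbols, and found 9 members among the 22095 loci listed. Of these, 8 had a mean FPKM of at least 1 and were tested, and *Dio3* fell below this limit.

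Thyroid hormone enters cells through membrane transporters, is activated or inactivated by deiodinases, and acts through nuclear receptors that bind DNA as heterodimers with RXR. In the mouse retina the *Thrb* product TRβ2, made from an internal promoter of the gene, is known to be needed for M opsin and to hold back S opsin in cones, and RXRγ is known as its partner in repressing S opsin. COUP-TFI and COUP-TFII, the products of *Nr2f1* and *Nr2f2*, are known to help set the opposed gradients of the cone opsins along the dorsoventral axis.

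Both groups were retinas of mice labelled C57BL/6J at 3 weeks of age, and differed in *Nr2e3*, which carries the *rd7* mutation in the first group and is wild-type in the second. Each of the 2 libraries per genotype pooled 8 retinas from 2 females and 2 males, so the spread between libraries is a spread between pools of animals. PolyA RNA of the whole retina was sequenced, so the dorsal and ventral parts are averaged, and fewer cells of a type and less RNA per cell cannot be told apart. Values are FPKM (fragments per kilobase of transcript, scaled to the mapped fragments of the library) computed by the authors, and loci are on mm9.

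Before the members are described, the libraries were checked. *Nr2e3* itself had an FPKM of 2493 and 1589 in *rd7* and 385 and 394 in wild-type retinas, and FPKM does not show whether its transcripts are normally spliced. Rod markers were abundant, and in *rd7* 3 of 6 tested were called lower, where 8.80% of all genes were (*Gnat1* -0.79, *Cnga1* -0.56 and *Nrl* -0.42 on the log2 scale) and 0 higher, with summed FPKM of 7716 and 8428 against 10545 and 10756. Cone markers were higher in *rd7*, where 8 of 10 were called and the summed FPKM was 3842 and 4063 against 1273 and 1316. Of 4 tested loci of blood genes, 3 were lower in *rd7*, where 8.80% of all genes were, with summed FPKM of 76.7 and 161 against 235 and 317. With median-ratio scaling 3 rod and 3 blood genes were lower, where 19.6% of all genes were, and after correction for GC content and length 4 of 6 rod and 1 of 2 blood genes, where 15.1% were. None of the lens markers was called, with summed FPKM of 14.5 and 31.9 in *rd7* and 25.2 and 53.7 in wild-type libraries. Of 2 tested astrocyte markers 0 were called, but *Gfap* stood apart in *rd7* replicate 2, with an FPKM of 10.3 and 28.1 in *rd7* and 7.59 and 8.14 in wild-type libraries, and the list summed to 17.8 and 34.3 against 14.1 and 15.5. Markers of other retinal cells were also called higher, with 5 of 7 for Müller cells, 4 of 6 for amacrine cells, 3 of 3 for horizontal cells, 4 of 6 for bipolar cells, 2 of 8 for ganglion cells and 2 of 8 for endothelium and pericytes, where 37.6% of all genes tested were called higher. With median-ratio scaling these were 4, 0, 2, 3, 1 and 2, where 19.7% of all genes were. If the lowest FPKM step is what a single read is worth, the depth was between 34869972 and 35600881 reads per library. Over the 4 libraries this comes to less than the mapped reads that the methods of the study give, so read numbers here are approximate.

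Among the receptors and their partners, *Thra*, *Thrb* and *Rxrg* were higher and *Rxra* was lower in *rd7* retinas, while *Rxrb*, *Dio2*, *Nr2f1* and *Nr2f2* did not pass the test. Genes were compared as log2(FPKM + 0.1) with limma and Benjamini-Hochberg adjustment over 12655 genes at an FDR of 5%. On this scale, a fold change understates that of low genes. Thus 3 of 8 members tested (37.5%) were higher, against 37.6% of all genes tested, and 1 of 8 (12.5%) was lower, against 8.80% of all genes. The counts of called members are therefore no result about the group, and the single genes are described instead. Over all genes tested the median log2 fold change was 0.15, and over the 8 members 0.23.

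The level of all genes moved with the scaling of the libraries, and so did the members. With each library scaled by its median ratio to the geometric mean, the median of all genes was -0.0049 and that of the members 0.079. There 2 of 8 members were higher and 1 lower, against 19.7% and 19.6% of all genes. After the values were corrected for the exonic GC content and length of each gene, 2 of 8 were higher and 1 lower, against 12.4% and 15.1% of the 12258 genes with an annotated length. *Rxrg*, *Thra* and *Rxra* were called in the same direction in both, and *Thrb* in neither.

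**Figure D1:**
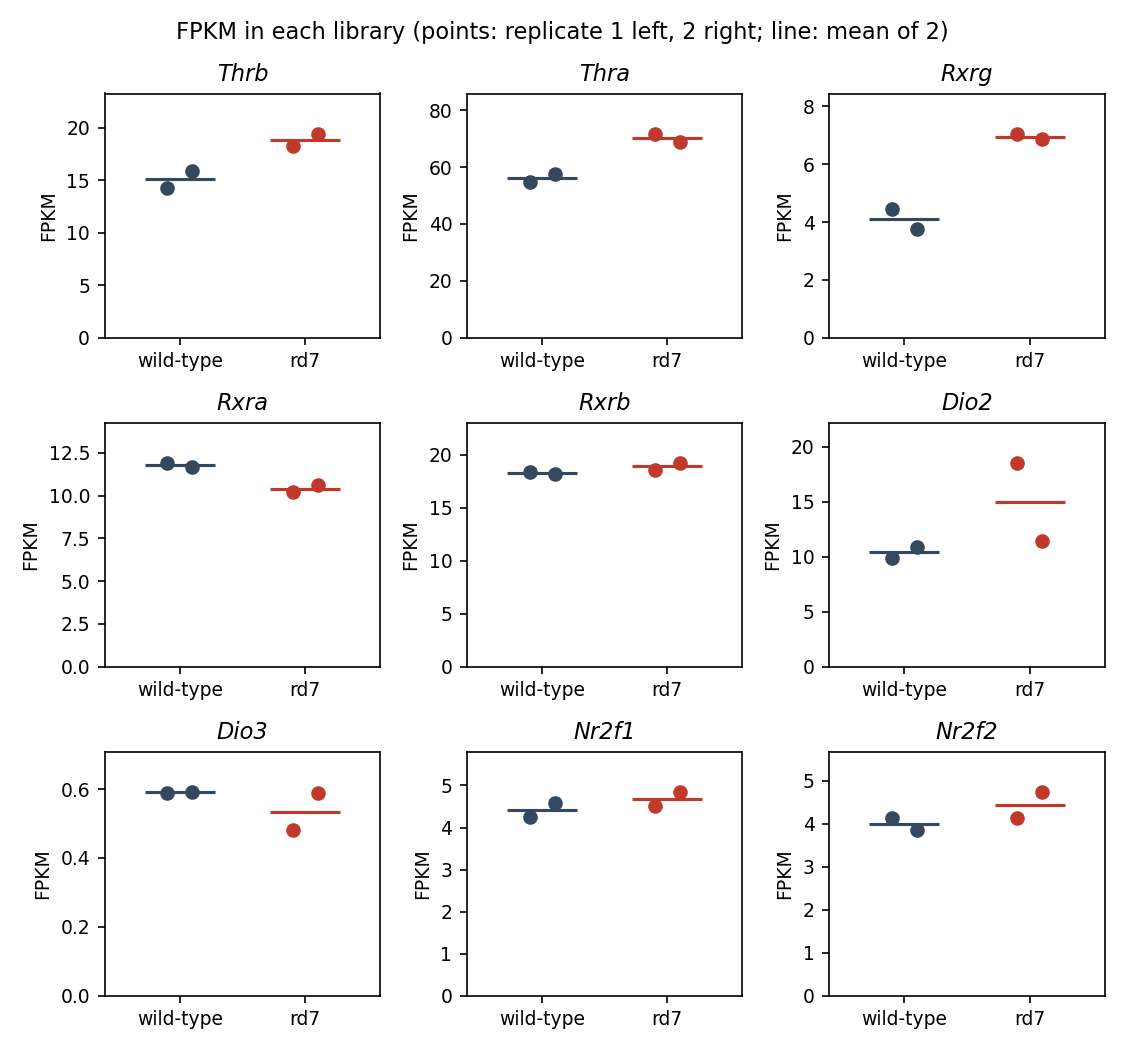
FPKM of the 9 genes in each library, with wild-type in dark and *rd7* in red, points for replicates 1 and 2 from left to right, and a line at the mean of 2 libraries. Each panel starts at 0. Both *rd7* points lie above both wild-type points for *Thrb*, *Thra*, *Rxrg*, *Rxrb*, *Dio2* and *Nr2f2*, and below them for *Rxra* and *Dio3*. Separation is thus not particular to the called genes, and its share over all genes was not computed. The gap is narrow for *Rxrb*, *Nr2f2* and *Dio3*, and *Dio2* is raised mainly in *rd7* replicate 1.

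*Rxrg* encodes RXRγ, the retinoid X receptor of cones in the retina, and lies on chromosome 1 from 169528493 to 169569755 on the plus strand. In *rd7* its FPKM was 7.04 and 6.87, and in wild-type libraries 4.46 and 3.76. Both *rd7* libraries were higher than both wild-type libraries, and the gap between genotypes was wider than the gap within either. The log2 fold change was 0.75 (standard error 0.097, adjusted p = 0.00312 from limma), or 1.68-fold, which stands at the 95.1th percentile of all genes tested. This rise was 0.60 with median-ratio scaling (limma, adjusted p = 0.00892), and 0.71 once GC content and length were corrected for (adjusted p = 0.00675 from limma). With any of the 4 libraries left out in turn it remained called, with log2 fold changes between 0.63 and 0.87. Each value rested on an estimated 308 to 572 reads.

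Cone genes in the same libraries changed by more and by less than *Rxrg*, from -0.16 for *Opn1mw* and 0.082 for *Arr3*, which were not called, to 3.17 for *Gnat2* on the log2 scale. *Gnat2*, the cone transducin, had an FPKM of 757 and 884 in *rd7* and 87.8 and 93.4 in wild-type retinas. *Cnga3*, a cone channel subunit, went from 5.88 and 5.16 in wild-type to 8.89 and 9.17 in *rd7*, a log2 fold change of 0.70. The cone list, with *Cnn3* at 0.38, had a median log2 fold change of 1.15. How far these genes account for the change of *Rxrg* was not tested.

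The 2 annotated starts of *Rxrg* lie 19.9 kb apart, and the FPKM per gene does not separate their transcripts. The 250 bases before each start are shown because *Rxrg* rose most among the members. The sequences are from RefSeq (GRCm38.p6), each matched exactly once in mm9, at chr1:169528243-169528492 and chr1:169548146-169548395, plus strand, 5′ to 3′. Capitals mark AGGTCA, the hexamer bound by many nuclear receptors, or TAATCC, the core motif of CRX and OTX2, on either strand.
Rxrg upstream start: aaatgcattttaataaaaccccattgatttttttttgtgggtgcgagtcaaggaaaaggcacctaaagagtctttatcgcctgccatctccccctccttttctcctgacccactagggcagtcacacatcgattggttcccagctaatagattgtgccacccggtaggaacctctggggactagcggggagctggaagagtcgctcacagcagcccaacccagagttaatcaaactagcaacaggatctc
Rxrg downstream start: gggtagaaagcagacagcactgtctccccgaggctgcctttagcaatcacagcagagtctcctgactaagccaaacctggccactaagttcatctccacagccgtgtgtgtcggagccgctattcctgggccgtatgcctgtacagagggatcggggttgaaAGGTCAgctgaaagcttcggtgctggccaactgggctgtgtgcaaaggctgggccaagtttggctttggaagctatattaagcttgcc
The window of the downstream start holds AGGTCA, from 88 to 83 bases before the start, and that of the upstream start holds neither motif. Over the 13 windows of the 8 members in the promoter table, AGGTCA was in 3 and TAATCC in 2. Of all 32851 windows of the same length, 14.0% hold AGGTCA and 6.25% hold TAATCC on either strand. The direct repeats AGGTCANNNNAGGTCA and AGGTCANAGGTCA, which contain the hexamer, were in 0 of the 13 windows, and in 0.0152% and 0.0335% of all windows.

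*Rxra* encodes RXRα, a broadly expressed retinoid X receptor (chromosome 2, 27532721 to 27618839, plus strand). Its FPKM was 10.2 and 10.6 in *rd7* and 11.9 and 11.7 in wild-type libraries. Both *rd7* libraries were lower than both wild-type libraries. The gene fell by 0.18 on the log2 scale (standard error 0.057, adjusted p = 0.0442 from limma), and by 0.33 with median-ratio scaling (limma, adjusted p = 0.00931). Its call without scaling was lost with *rd7* replicate 1 left out (log2 fold change -0.15), with wild-type replicate 1 left out (-0.17) and with wild-type replicate 2 left out (-0.19).

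*Rxrb*, on chromosome 17 from 34168797 to 34175344 on the plus strand, encodes RXRβ, which is also broadly expressed. Its FPKM was 18.6 and 19.2 in *rd7* and 18.4 and 18.2 in wild-type libraries. The groups did not overlap but lay close together, and the log2 fold change was 0.045, with a 95% interval from -0.081 to 0.17 (adjusted p = 0.497 from limma). With median-ratio scaling the value was -0.11, with an interval from -0.24 to 0.020, so its sign rests on the scaling.

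The makeup of the RXR transcripts can be read within each library, where scaling cancels. The summed FPKM of the RXR genes was 35.9 and 36.7 in *rd7* and 34.8 and 33.7 in wild-type libraries. *Rxrg* was 19.6% and 18.7% of this sum in *rd7* and 12.8% and 11.2% in wild-type libraries. *Rxra* was 28.5% and 28.9% in *rd7* and 34.3% and 34.8% in wild-type libraries, and the groups did not overlap for *Rxrg* or *Rxra*. *Rxrb* was 51.9% and 52.4% of the sum in *rd7* and 52.9% and 54.1% in wild-type libraries, which also did not overlap. With 2 libraries against 2, an exact permutation test cannot give a p under 0.333, so these ratios are given without a test.

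**Figure D2:**
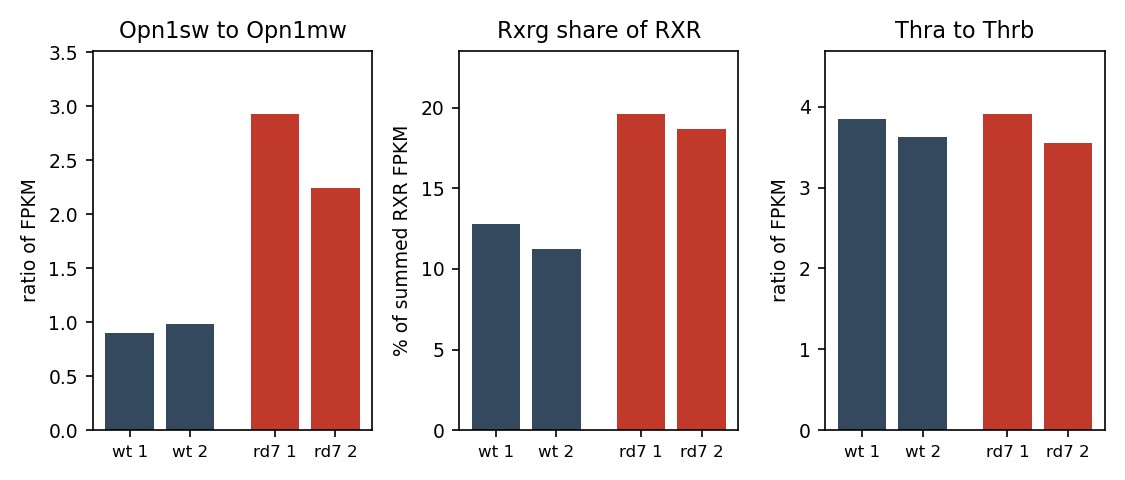
Ratios of FPKM within each library, not corrected for GC content and length, for wild-type (dark) and *rd7* (red) replicates 1 and 2. From left to right, the bars give *Opn1sw* relative to *Opn1mw*, *Rxrg* as a percentage of the summed FPKM of the RXR genes, and *Thra* relative to *Thrb*. The first 2 were higher in both *rd7* libraries (2.93 and 2.24 against 0.897 and 0.987, and 19.6% and 18.7% against 12.8% and 11.2%), and the last overlapped between genotypes, from 3.55 to 3.91.

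*Thra* encodes TRα and was the most abundant member (chromosome 11, 98603187 to 98626425, plus strand). Its FPKM was 71.6 and 69.0 in *rd7* and 54.9 and 57.6 in wild-type libraries. Both *rd7* libraries were higher than both wild-type libraries. The log2 fold change was 0.32 (standard error 0.051, adjusted p = 0.00540 from limma), or 1.25-fold. Part of this rise moved with the scaling, as it was 0.17 with median-ratio scaling (limma, adjusted p = 0.0383), and 0.28 once GC content and length were corrected for (adjusted p = 0.0115 from limma). With wild-type replicate 1 left out it was 0.29 and not called (adjusted p = 0.0755 from limma).

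The annotated end of *Thra* overlaps that of *Nr1d1*, the gene of the clock repressor REV-ERBα on the opposite strand, by 1075 bases, from 98629246 to 98630320 in GENCODE vM1. The deposited loci of the 2 genes are 2823 bases apart. The deposited locus of *Thra* ends before the overlap, which lies almost wholly within the deposited locus of *Nr1d1* (98629249 to 98636556). Library preparation as described does not mark strand, so reads of longer *Thra* transcripts there cannot be told from those of *Nr1d1*. *Nr1d1*, looked up for this reason after its values were seen, had an FPKM of 48.9 and 60.2 in *rd7* and 66.6 and 64.5 in wild-type libraries. Its log2 fold change of -0.27 was not called (adjusted p = 0.0709 from limma), but with median-ratio scaling the value was -0.43 and called (adjusted p = 0.0256 from limma). It was also called with *rd7* replicate 2 left out (-0.42), while with *rd7* replicate 1 left out it was -0.12 and not called.

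*Thrb* encodes TRβ and spans chromosome 14 from 18493474 to 18870602 on the plus strand. Its FPKM was 18.3 and 19.4 in *rd7* and 14.3 and 15.9 in wild-type libraries. Both *rd7* libraries were higher than both wild-type libraries. The log2 fold change was 0.32 (standard error 0.073, adjusted p = 0.0170 from limma), or 1.25-fold. The gene was no longer called after median-ratio scaling (0.17, adjusted p = 0.111 from limma), after quantile normalization (0.18, adjusted p = 0.110 by limma) or with wild-type replicate 1 left out (0.24, adjusted p = 0.136 from limma). Once GC content and length were corrected for, the value was -0.0064 (adjusted p = 0.948 from limma). The exons of *Thrb* have a GC content of 44.7%, and those of *Thra* 56.7%.

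The ratio of *Thra* to *Thrb* was 3.91 and 3.55 in *rd7* and 3.85 and 3.62 in wild-type libraries, and the groups overlapped. This ratio is of FPKM not corrected for GC content and length. With that correction the log2 fold changes of the 2 genes differed, at 0.28 for *Thra* and -0.0064 for *Thrb*. The summed FPKM of both receptors was 89.9 and 88.5 in *rd7* and 69.2 and 73.6 in wild-type libraries. The values per gene do not separate TRβ2 from other *Thrb* products, or TRα1 from the TRα2 variant that does not bind the hormone. The promoter table holds 2 starts of *Thrb*, 321 kb apart, and none of *Thra*. The 250 bases before each start of *Thrb* are shown because the FPKM pools transcripts from both, at chr14:18493224-18493473 and chr14:18813908-18814157 of mm9, plus strand, with the same marks and source as for *Rxrg*.
Thrb upstream start: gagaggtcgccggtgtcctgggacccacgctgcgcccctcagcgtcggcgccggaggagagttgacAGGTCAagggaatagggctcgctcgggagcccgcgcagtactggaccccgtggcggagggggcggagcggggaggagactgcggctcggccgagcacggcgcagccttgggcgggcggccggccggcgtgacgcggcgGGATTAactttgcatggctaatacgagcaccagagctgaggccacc
Thrb downstream start: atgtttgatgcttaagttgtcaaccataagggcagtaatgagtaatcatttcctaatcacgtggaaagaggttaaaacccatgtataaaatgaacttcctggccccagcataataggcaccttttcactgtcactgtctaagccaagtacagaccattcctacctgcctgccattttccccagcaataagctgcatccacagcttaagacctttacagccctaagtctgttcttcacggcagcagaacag
The upstream window holds AGGTCA, from 184 to 179 bases before the start, and the reverse complement of TAATCC, from 46 to 41 bases before it. The downstream window holds neither motif. GC makes up 71.6% of the upstream and 44.0% of the downstream window.

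**Figure D3:**
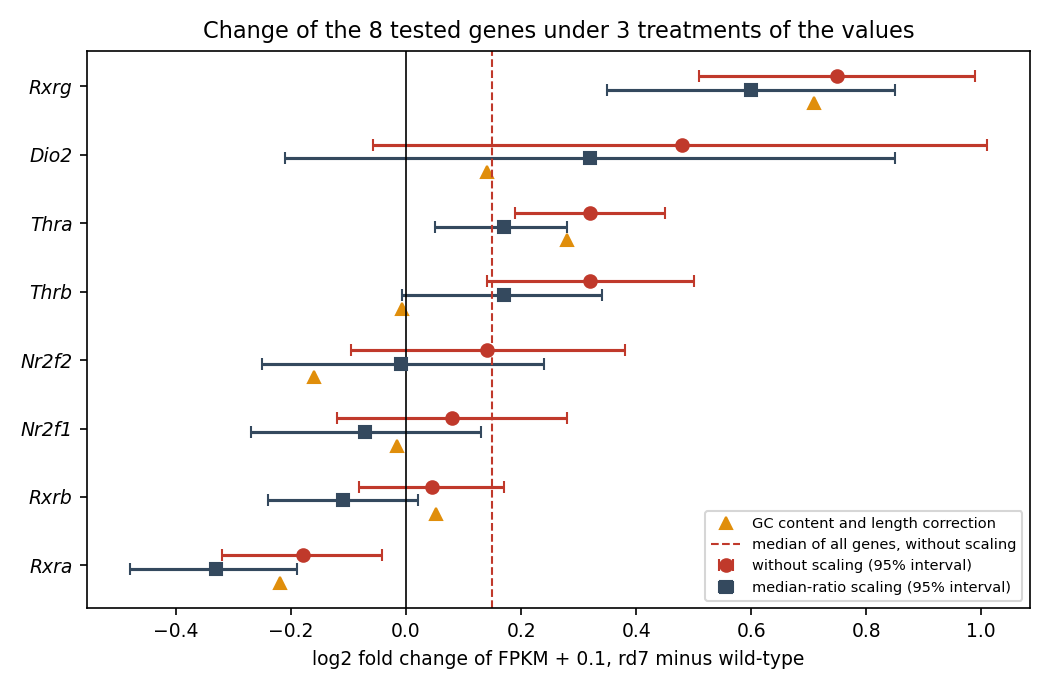
Log2 fold changes of the 8 tested genes, *rd7* minus wild-type, on the log2(FPKM + 0.1) scale. Circles are values without scaling and squares values with median-ratio scaling, each with its 95% interval, triangles are values with the GC content and length correction, and the dashed line is the median of all genes without scaling (0.15). *Rxrg* is on the right of 0 and *Rxra* on the left under all 3, while *Thrb* is at 0.32, 0.17 and -0.0064.

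*Dio2* encodes the deiodinase that turns thyroxine into the active hormone triiodothyronine, and lies on chromosome 12 from 91962992 to 91976878 on the minus strand. Its FPKM was 18.5 and 11.4 in *rd7* and 9.87 and 10.9 in wild-type libraries. Only *rd7* replicate 1 was far from the others, and *rd7* replicate 2 lay just above the wild-type libraries. The log2 fold change was 0.48 and was not called, with a 95% interval from -0.057 to 1.01 (adjusted p = 0.121 from limma). Without *rd7* replicate 1 it was 0.13 (adjusted p = 0.198 from limma), and without *rd7* replicate 2 it was 0.82 and called (adjusted p = 8.68e-05 from limma), so that a single library decides the value. Only 0.877% of the genes tested had a ratio of *rd7* replicate 1 to *rd7* replicate 2 as high as the 1.62 of *Dio2*.

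In *rd7* replicate 1, genes of blood vessels were raised as well. All 8 markers of endothelium and pericytes on the list had their highest value in this library, and the share of all genes that did was not computed. Blood genes had their lowest summed FPKM there (76.7). Their summed FPKM was 82.4 there, 57.7 in *rd7* replicate 2, and 42.7 and 47.5 in the wild-type libraries. *Cldn5*, a tight junction gene of vessels, had an FPKM of 16.2 and 7.65 in *rd7* and 7.56 and 8.62 in wild-type libraries. *Pecam1*, an endothelial adhesion gene, had 4.16 and 2.57 in *rd7* and 2.35 and 3.02 in wild-type libraries. *Slco1c1*, a thyroxine transporter of brain vessels, had 3.54 and 2.52 in *rd7* and 2.13 and 2.30 in wild-type libraries. The list was not uniform, as *Kdr* (23.4 and 20.7 in *rd7* against 15.3 and 15.5) and *Rgs5* (28.5 and 19.7 against 11.0 and 12.9) were high in both *rd7* libraries and called. The ratio of *rd7* replicate 1 to 2 ran from 1.04 for *Pdgfrb* to 2.11 for *Cldn5*, against a median of 1.01 over all genes tested. The part of vessels in the value of *Dio2* was not tested.

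**Figure D4:**
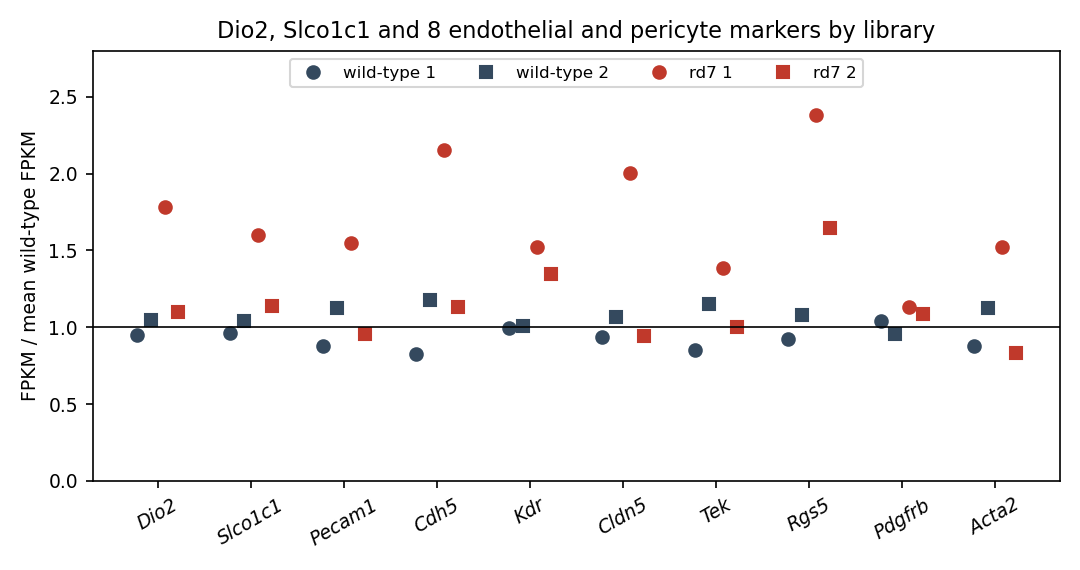
FPKM of *Dio2*, *Slco1c1* and 8 markers of endothelium and pericytes in each library, divided by the mean of the wild-type libraries. Circles are replicate 1, squares replicate 2, red is *rd7* and dark is wild-type. All 10 genes are highest in *rd7* replicate 1, where *Dio2* had an FPKM of 18.5. The share of all genes highest in that library was not computed.

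*Dio3* encodes the deiodinase that inactivates thyroid hormone (chromosome 12, 111517440 to 111519307, plus strand). Its FPKM was 0.481 and 0.588 in *rd7* and 0.590 and 0.591 in wild-type libraries, the lowest of the members in all 4 libraries. It was under the limit for the test, and the difference on the log2(FPKM + 0.1) scale was -0.13. It was -0.0066 with *rd7* replicate 1 left out and -0.25 with *rd7* replicate 2 left out. Tested without the limit, it was not called (standard error 0.15, adjusted p = 0.570 from limma). These values rested on an estimated 32, 38, 39 and 39 reads over the deposited locus, and the intervals that follow depend on this estimate. The exact Poisson 95% intervals, which cover counting error only, were 0.331 to 0.683 and 0.413 to 0.801 in *rd7* and 0.419 to 0.806 and 0.417 to 0.802 in wild-type libraries, and overlapped. The ratio of *Dio2* to *Dio3* was 38.4 and 19.4 in *rd7* and 16.7 and 18.5 in wild-type libraries.

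*Nr2f1* (COUP-TFI) lies on chromosome 13 from 78328236 to 78338243 on the minus strand. Its FPKM was 4.52 and 4.84 in *rd7* and 4.26 and 4.59 in wild-type libraries, and the groups overlapped. The log2 fold change was 0.080, with a 95% interval from -0.12 to 0.28 (adjusted p = 0.453 from limma). *Nr2f2* (COUP-TFII) lies on chromosome 7 from 77496836 to 77511632 on the minus strand. Its FPKM was 4.14 and 4.73 in *rd7* and 4.14 and 3.86 in wild-type libraries, so that the groups nearly met at 4.14. The log2 fold change was 0.14, with an interval from -0.095 to 0.38 (adjusted p = 0.267 from limma). With median-ratio scaling both values turned below 0, to -0.071 and -0.0083, and neither was called. The ratio of *Nr2f1* to *Nr2f2* lay between 1.02 and 1.19 in the 4 libraries.

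FPKM is given per length, so the members can be ordered by level as far as bias between genes allows. Exonic GC content ran from 43.4% for *Dio2* to 61.2% for *Rxrb*. The spread between libraries does not cover an effect of GC content on the level, so close ranks are uncertain. In wild-type retinas the order from the highest mean FPKM was *Thra* (56.3 ± 1.91, SD, n = 2 libraries here and below), *Rxrb* (18.3 ± 0.126), *Thrb* (15.1 ± 1.19), *Rxra* (11.8 ± 0.154), *Dio2* (10.4 ± 0.757), *Nr2f1* (4.43 ± 0.229), *Rxrg* (4.11 ± 0.494), *Nr2f2* (4.0 ± 0.195) and *Dio3* (0.591). The ranges of *Nr2f1* and *Rxrg*, and of *Rxrg* and *Nr2f2*, overlapped, so the order of these neighbours is not resolved. In *rd7* retinas *Rxrg* (6.95 ± 0.120) stood above *Nr2f1* (4.68 ± 0.227) and *Nr2f2* (4.43 ± 0.417) without overlap. There the range of *Thrb* (18.9 ± 0.797) overlapped those of *Rxrb* (18.9 ± 0.427) and *Dio2* (14.9 ± 5.01), which did not overlap each other.

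The cone opsins are the genes that these receptors are known for. *Opn1sw*, the S opsin, had an FPKM of 504 and 465 in *rd7* and 185 and 215 in wild-type libraries. Its log2 fold change was 1.28 (adjusted p = 0.000648 from limma). *Opn1mw*, the M opsin, had 172 and 208 in *rd7* and 207 and 217 in wild-type libraries. It was not called (-0.16, adjusted p = 0.202 from limma), except with median-ratio scaling (-0.32, limma, adjusted p = 0.0470) and with *rd7* replicate 2 left out (-0.30). With *rd7* replicate 1 left out it was -0.027, so that a single library decides the value. Within a library, the FPKM of *Opn1sw* was 2.93 and 2.24 times that of *Opn1mw* in *rd7*, and 0.897 and 0.987 times in wild-type libraries.

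Of 7 genes of thyroid hormone transport, amino acid transporters that also carry the hormone included, 3 were higher and 0 lower, near the 37.6% of all genes that were higher, with a median log2 fold change of 0.25 against 0.15 over all genes. *Slc3a2*, the shared heavy chain of the amino acid transporters, had an FPKM of 47.4 and 47.3 in *rd7* and 34.3 and 35.7 in wild-type libraries (log2 fold change 0.44, adjusted p = 0.00218 from limma). Its partners *Slc7a5* (0.24) and *Slc7a8* (0.22) were also called, but not with median-ratio scaling (0.088 and 0.067). With wild-type replicate 1 left out, the values of *Slc7a5* and *Slc7a8* were 0.18 and 0.20, with wild-type replicate 2 left out 0.30 and 0.24, and none was called. *Slc7a5* also lost its call with *rd7* replicate 1 left out (0.18). At the same value of 0.24 it was not called without a filter on low FPKM, without a variance trend or with a replicate block. For *Slco1c1* the value was 0.41 (adjusted p = 0.0956 from limma), with *rd7* replicate 2 left out it was called (0.65), and with *rd7* replicate 1 left out it was 0.18.

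Of 4 tested genes that bind or metabolize the hormone, 2 were higher, where 37.6% of all genes were. With median-ratio scaling 2 were higher and 1, *Sult1a1* (-0.27), was lower, where 19.7% and 19.6% of all genes were. Quantile normalization gave the same counts for the list. *Crym*, whose product µ-crystallin binds triiodothyronine in the cytosol, had an FPKM of 70.1 and 77.6 in *rd7* and 42.3 and 40.0 in wild-type libraries. Its log2 fold change was 0.84 (adjusted p = 0.000971 from limma), and 0.69 with median-ratio scaling. *Ttr*, the thyroxine carrier transthyretin, had 39.3 and 34.9 in *rd7* and 21.1 and 13.1 in wild-type libraries. Its log2 fold change was 1.15 (adjusted p = 0.00855 from limma). *Ttr* is made by the pigment epithelium, whose marker list, which includes *Ttr*, had summed FPKM of 54.2 and 48.9 in *rd7* and 32.2 and 22.4 in wild-type libraries, with 3 of 6 tested markers higher. Without *Ttr* the sums were 14.8 and 14.0 against 11.2 and 9.28, with 2 of 5 tested markers higher. After correction for GC content and length, 1 of the 6 was higher, *Ttr* itself (0.99), and 1 was lower, *Tyr* (-0.37). Of all genes, 12.4% were higher and 15.1% lower there. *Rpe65*, a defining gene of that tissue, had an FPKM of 2.28 and 2.44 in *rd7* and 1.4 and 0.784 in wild-type libraries. *Tyrp1* (log2 fold change 0.94) was also called higher, but not with median-ratio scaling (0.80). Without scaling *Rdh5* (0.47), *Tyr* (0.031) and *Mitf* (0.095) were not called. *Lrat* and *Best1* were under the limit for the test. *Lrat* had an FPKM of 1.12 and 0.881 in *rd7* and 0.324 and 0.235 in wild-type libraries. *Best1* had 0.110 and 0.0707 in *rd7* and 0.178 and 0.236 in wild-type libraries. The part of this tissue in the value of *Ttr* was not tested. *Dio1*, the other activating deiodinase, had FPKM between 0 and 0.0176, under the limit for the test.

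Among 10 tested cofactors of the receptors, 3 were higher and 1 lower, near the 37.6% and 8.80% of all genes, with a median log2 fold change of 0.14 against 0.15. *Hr*, a corepressor of thyroid hormone receptors that is itself known as a target of the hormone, had an FPKM of 55.9 and 44.6 in *rd7* and 19.5 and 20.1 in wild-type libraries. Its log2 fold change was 1.33 (standard error 0.11, adjusted p = 0.000981 from limma), or 2.52-fold, and 1.18 with median-ratio scaling. *Tbl1x* (0.59) and *Tbl1xr1* (0.44), subunits of the NCoR corepressor complex, were higher, and *Gps2* (-0.30), another subunit, was lower. *Tbl1xr1* lost its call once GC content and length were corrected for (0.067) and with wild-type replicate 1 left out (0.42), and *Gps2* with wild-type replicate 1 (-0.33) or 2 (-0.27) left out. The corepressor *Ncor1* (0.14) and the coactivators *Ncoa1* (0.23), *Ncoa2* (0.090) and *Ncoa3* (-0.00030) were not called. Without a filter on low FPKM, and also with a replicate block, 4 cofactors were called higher in place of 3. After correction for GC content and length *Ncor1* (-0.17), *Ncoa2* (-0.19) and *Ncoa3* (-0.22) were called lower. With median-ratio scaling *Ncor1* (-0.013) and *Ncoa2* (-0.064) also lay below 0 but were not called. The direction of *Ncor1* and *Ncoa2* thus rests on the processing. *Med1* had no usable estimate in at least 1 library.

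The list of genes known to respond to thyroid hormone in other tissues had 1 gene higher and 2 lower of 7, against 37.6% and 8.80% of all genes, and a median of 0.026 against 0.15. After correction for GC content and length the counts were the same, against 12.4% and 15.1% of all genes, and the median was 0.041 against -0.023, so that its place relative to all genes turned. *Mbp*, a myelin gene, was higher (7.41 and 7.90 against 5.29 and 5.53 FPKM, log2 fold change 0.49), and *Me1*, malic enzyme, was lower (21.5 and 25.5 against 30.2 and 30.6 FPKM, -0.37). *Dbp*, also an output gene of the circadian clock, fell by 0.51 on the log2 scale (46.7 and 47.7 against 69.3 and 65.3 FPKM, adjusted p = 0.00171 from limma). *Klf9* had a log2 fold change of 0.17 (adjusted p = 0.0612 from limma), was called with *rd7* replicate 2 left out (0.19), and was 0.11 with wild-type replicate 1 left out. With wild-type replicate 1 left out, *Mbp* (0.46) and *Me1* (-0.38) lost their calls, and *Me1* also with wild-type replicate 2 left out (-0.36). The time of day at which the retinas were taken is not given in the sources used here.

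Of 13 tested factors of opsin patterning and photoreceptor fate, 7 were higher, *Nr2e3* among them, and 2 were lower, against 37.6% and 8.80% of all genes, with a median of 0.36 against 0.15. *Rora* and *Rorb*, nuclear receptors known to activate cone opsin genes, had log2 fold changes of 0.53 (adjusted p = 0.00175 from limma) and 0.55 (adjusted p = 0.00161 from limma). *Otx2* (0.56), *Samd7* (0.36), *Onecut1* (0.75) and *Crx* (0.21) were also higher, but *Crx* was not called with median-ratio scaling (0.058). *Onecut1* is also a horizontal cell marker, and the other tested markers of these cells, *Lhx1* (0.64) and *Calb1* (0.48), were called higher as well. After correction for GC content and length neither was called (0.47 and 0.081), while *Onecut1* was (0.79), and *Lhx1* was not called with median-ratio scaling (0.50). Their part in its value was not tested. *Vax2*, a ventral factor, fell by 0.58 on the log2 scale, with an FPKM of 11.3 and 11.2 in *rd7* and 16.3 and 17.4 in wild-type libraries (adjusted p = 0.00166 from limma), and *Nrl*, the rod factor, fell by 0.42. Once GC content and length were corrected for, only 3 of the 13 were higher, against 12.4% of all genes, and 3 were lower, against 15.1%. The third of these was *Neurod1* (-0.36), which was also lower with median-ratio scaling (-0.21) but not without scaling (-0.057). With the same correction *Rora* (0.17), *Rorb* (0.16), *Samd7* (0.12) and *Crx* (0.0064) were no longer called. With wild-type replicate 1 left out, *Onecut1* (0.84), *Nrl* (-0.43) and *Crx* (0.23) lost their calls, and with wild-type replicate 2 left out so did *Onecut1* (0.65), *Nrl* (-0.41) and *Crx* (0.19). With *rd7* replicate 1 left out, *Crx* was 0.13 and called.

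Of 9 other tested nuclear receptors that pair with RXR, 1 was higher and 3 were lower, against 37.6% and 8.80% of all genes, with a median of -0.14 against 0.15. The retinoic acid receptors *Rara* (-0.30) and *Rarg* (-0.39) and the orphan receptor *Nr4a1* (-0.18) were lower, and *Ppara* (0.24), the receptor for fatty acids, was higher. None of these 4 calls held with either wild-type library left out. *Ppara* also lost its call with *rd7* replicate 1 left out (0.17), and *Rarg* with *rd7* replicate 2 left out (-0.38). *Ppara* was not called with median-ratio scaling (0.088), where 5 genes of the list were lower, against 19.6% of all genes. After correction for GC content and length 0 of the 9 were called in either direction, with *Rara* at -0.30, *Rarg* at -0.40, *Nr4a1* at -0.18 and *Ppara* at 0.13. With a replicate block 1 gene of the list was lower, and without the filter 0 were.

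**Figure D5:**
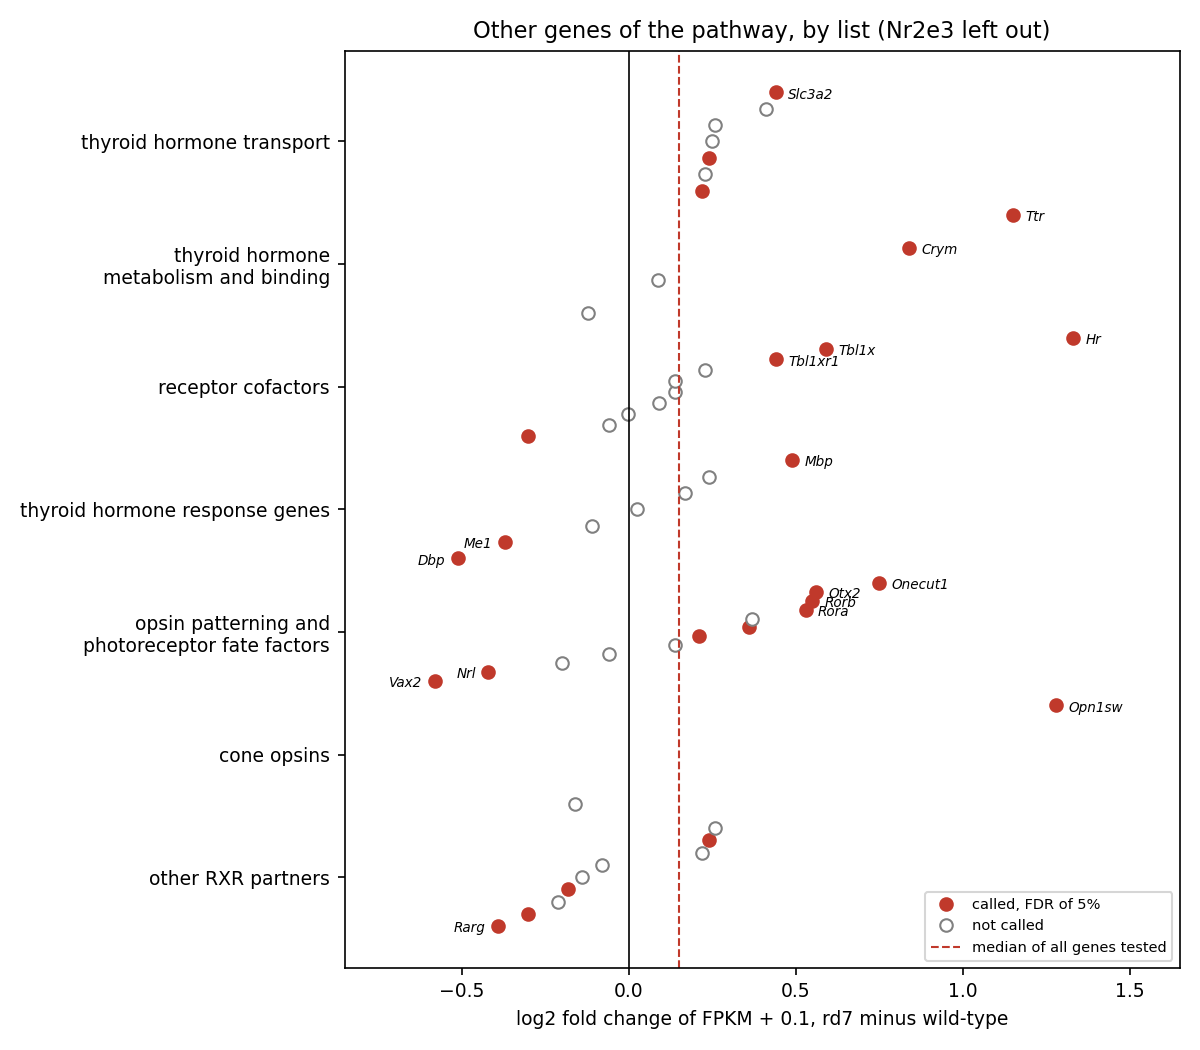
Log2 fold changes (*rd7* minus wild-type, log2(FPKM + 0.1)) of the tested genes of the 7 lists, with *Nr2e3* left out because its value of 2.35 lies beyond the axis. Filled points were called by limma at an FDR of 5%, open points were not, and the dashed line is the median of all genes tested (0.15). *Hr* at 1.33, *Opn1sw* at 1.28, *Ttr* at 1.15 and *Crym* at 0.84 lie farthest to the right.

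The genes with the pattern most like that of *Rxrg* over the 4 libraries were *Pcdha10* (distance 0.0402), *Setbp1* (0.0665) and *Rxfp3* (0.0693), by Euclidean distance between log2 values centred on each gene's mean. For *Thrb* they were *4930563E22Rik* (0.00528), *A930001N09Rik* (0.0194) and *2410066E13Rik* (0.0195). Within a distance of 0.1 lay 539 genes for *Thrb* and 12 for *Rxrg*. *Pcdha10* belongs to a clustered gene family whose members may share reads, so its value is uncertain. These distances describe 4 libraries and carry no test.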

How the data were processed

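RNA-seq of 4 libraries was analysed from the table of FPKM per gene and library that the authors deposited. The submitters' processing notes name mm9, TopHat 1.4.1, Cufflinks 1.3.0 and Cuffdiff, and the reads were single and 50 bp long. Since FPKM are no counts, a count test was not applied. A second deposited table holds the authors' own Cuffdiff comparison (pooled FPKM, fold changes, p-values and q-values) and was not used. Of 22095 loci, 262 were left out because their estimate was not marked OK in every library.

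Values were compared as log2(FPKM + 0.1) using limma 3.58.1 (R 4.3.3) over the 12655 genes whose mean FPKM was 1 or more. The test was two-sided and moderated with a trend of variance on level, and p-values were adjusted by Benjamini-Hochberg at an FDR of 5%. The step was tested on simulated data. Python 3.11.15 and scipy 1.17.1 gave the other values. Exonic length and GC content came from GENCODE vM1 on the same build, matched by symbol and locus for 96.9% of the genes tested. Starts are counted from 1.

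The worth of 1 read was taken as the median of FPKM times kb of exon, between 0.02 and 0.036, in genes with 1 annotated transcript of over 800 bp. This window was chosen by eye. Alternatives were pseudocounts of 1 and 0.01, no filter, a higher filter (mean FPKM of 5), quantile normalization, median-ratio scaling, a GC content and length correction (splines with 5 degrees of freedom), no variance trend, a replicate block, an FDR of 1% and leaving out each library. The genes named are the 9 members, *Nr2e3*, the cone opsins, list genes in sentences on their own list, and the 3 genes nearest in pattern to *Thrb* and to *Rxrg*. *Nr1d1* was added after values were seen. The members and lists were chosen with earlier results of these data known. A few genes of the lists are not reported here by name.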

Additional observations from a re-analysis of the deposited data

How the results depend on the processing

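*Rxrg* and *Thra* stayed higher at an FDR of 5% in all 9 refits of the 4 libraries, with log2 fold changes from 0.56 to 0.76 and from 0.17 to 0.32. For *Thrb*, 6 of 9 refits kept the call. It was lost with median-ratio scaling (0.17), quantile normalization (0.18) and the GC content and length correction, where the sign turned (-0.0064). *Rxra* (-0.18) lost its call without a filter on low FPKM and without a variance trend, which left no member lower (0 in each, and 0 at an FDR of 1%). Signs turned without a call for *Rxrb* with median-ratio scaling (-0.11) and quantile normalization (-0.10), for *Nr2f1* with both (-0.071 and -0.12) and the GC content and length correction (-0.016), and for *Nr2f2* with the same 3 (-0.0083, -0.060 and -0.16). *Dio3* had a difference of -0.26 with median-ratio scaling. The cause was not tested.

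No pairing of libraries by replicate number was seen (r = -0.0265 between the deviations of the libraries numbered 1, across 12655 genes). This check can fail to show a shared preparation but cannot exclude it. With a replicate block, *Rxra* kept its value of -0.18 without a call (adjusted p = 0.0663 from limma), so 0 members were lower, and 4508 genes were higher and 1091 lower.

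With each library left out in turn, log2 fold changes ranged from 0.24 to 0.40 for *Thrb*, 0.29 to 0.36 for *Thra*, -0.21 to -0.15 for *Rxra* and 0.13 to 0.82 for *Dio2*. Members higher ranged from 1 to 4 and members lower from 0 to 1. Over all genes, 1293 to 5484 were higher and 224 to 1601 lower. A lone library of a genotype is assumed there to vary like the others.

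Over all genes, 4755 were higher and 1114 lower. Median-ratio scaling gave 2492 and 2479, quantile normalization 2350 and 2404, the GC content and length correction 1520 and 1849, and an FDR of 1% 2582 and 446. The first 3 moved the median of all genes to -0.0049, -0.012 and -0.023. Among other genes of the lists, 1 transporter was higher in place of 3 under each of these 3. Lower genes among receptor cofactors numbered 2, 2 and 4 in place of 1, lower RXR partners 5, 5 and 0 in place of 3, and higher fate factors 6, 6 and 3 in place of 7.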
